A study of Mus musculus with 48 samples.

Results

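The interleukin 1 (IL-1) family genes of this series are 9 genes picked by name, out of the 34586 genes of the deposited count table: the ligands Il1b, Il1a, Il18 and Il33, the receptor antagonist Il1rn, the signalling receptor Il1r1 with its partner chain Il1rap, the decoy receptor Il1r2, and Il18rap, the accessory chain of the IL-18 receptor. The study applied Seq-Well, a microwell-based single-cell RNA sequencing method, to joint, lung, limb muscle, skin and spleen of male, young adult DBA1/J mice. Collagen-induced arthritis (CIA) was raised in 6 mice with 100 µg of bovine type II collagen in complete Freund's adjuvant and a booster on day 20, and 4 healthy mice served as controls, which per the study's methods were injected with phosphate-buffered saline. Healthy and CIA mice therefore differed in collagen, adjuvant and disease, and these cannot be told apart. The mice are named H3, H4, H6 and H7 (healthy) and S1, S2, S3, S5, S6 and S8 (CIA). They came from 2 experiments: H3, S1, S2 and S3 from the one named 2CIA, and the other 6 mice from the one named CIA. The CIA mice of 2CIA had arthritis scores of 8, and those of the other experiment had scores between 2 and 5, so severity and experiment cannot be told apart among CIA mice. Joint was available from 3 healthy and 5 CIA mice, and each of the other organs from 4 healthy and 6 CIA mice.

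IL-1α and IL-1β are cytokines that bind IL1R1, which then recruits IL1RAP and signals through MYD88 and NF-κB. The antagonist IL-1RN occupies the same receptor without signalling, and IL1R2 binds ligand and has no signalling domain, so it acts as a decoy. IL-18 and IL-33 use receptors of their own, of which the IL-18 receptor contains IL18RAP and the IL-33 receptor shares IL1RAP. IL-1β and IL-18 are made as precursors and cut by caspase 1, whereas IL-33 and IL-1α can be released by damaged cells. In arthritis, IL-1 is known for inducing matrix metalloproteinases, chemokines and acute-phase proteins in synovial fibroblasts.

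The table held 13240 cells, of which 12096 carried 1 of 13 cell type labels given by the authors. Levels are given as CPM, the UMIs (unique molecular identifiers, one per captured mRNA molecule) of a gene per 1000000 UMIs of the cells in question. Labelled cells held a median of 675 UMIs, and their total per sample ranged from 17748 UMIs in a lung to 1645734 in a muscle, so the level of a rare transcript rests on few molecules. A barcode occurred in more than 1 library 59 times, most often (36 barcodes) between muscle and spleen of mouse S8. The 112 labelled cells with such a barcode held 2 Il1b UMIs. The markers fixed for each label summed highest in that label for 8 of 13 labels, and not for dendritic cells, monocytes, myocytes, neutrophils and T cells. Il1b is 1 of the study's monocyte markers and Il18rap 1 of its NK cell markers, so the levels of these genes by label are not independent of the labels.

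In GENCODE vM21 (GRCm38), 3 receptor genes lie within 478 kb of chromosome 1: Il1r2 (chr1:40074079-40125231), Il1r1 (chr1:40225080-40317257) and Il18rap (chr1:40515362-40551705), all on the plus strand. Il1b (chr2:129364570-129371139) and Il1a (chr2:129299610-129309972) are neighbours on the minus strand of chromosome 2, which also carries Il1rn (chr2:24336853-24351494). Il18 is at chr9:50554827-50581840, Il1rap at chr16:26581704-26730117 and Il33 at chr19:29925114-29960718. RefSeq promoters on GRCm38.p6, from 250 bases before to 50 bases after a start, matched all 9 genes and gave 13 sequences. The promoters of Il1b and of 1 start of Il1rn are shown because the 2 genes had the lowest unadjusted p-values of the set in joint and in lung; capitals mark TATAAA, found in Il1b at position -31 from the start, and the NF-κB letters (GGG, any 2 bases, TTTCC), found in Il1rn at position -51.
Il1b, chr2:129371090-129371389, minus strand: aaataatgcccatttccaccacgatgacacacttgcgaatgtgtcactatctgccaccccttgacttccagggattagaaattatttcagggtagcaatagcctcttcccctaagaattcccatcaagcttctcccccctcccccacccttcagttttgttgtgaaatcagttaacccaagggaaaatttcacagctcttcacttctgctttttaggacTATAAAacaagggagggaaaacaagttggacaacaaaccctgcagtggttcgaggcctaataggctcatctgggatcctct
Il1rn, chr2:24345121-24345420, plus strand: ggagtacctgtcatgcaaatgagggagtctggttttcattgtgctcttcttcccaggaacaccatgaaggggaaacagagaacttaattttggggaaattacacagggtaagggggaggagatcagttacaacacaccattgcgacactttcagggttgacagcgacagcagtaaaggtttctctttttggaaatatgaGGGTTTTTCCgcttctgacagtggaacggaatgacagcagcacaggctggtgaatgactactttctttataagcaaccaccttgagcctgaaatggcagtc
TATAAA, searched on the strand of the gene only, was present in 8.32% of all 32851 RefSeq promoters, and the NF-κB letters, searched on both strands, in 1.63%. The letters searched on both strands for C/EBP (TTGCNNAA, in 10.8% of promoters) and PU.1 (GAGGAAG, in 13.6%) were in neither of the printed windows. Il1rn had other windows that are not printed. The window at chr2:24345041-24345340 held the NF-κB letters at position 29, and that at chr2:24336610-24336909 did not hold them. Counts from the 3′ end do not show which start was used. These matches describe letters and not binding.

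Il1b, which encodes IL-1β, was found mainly in myeloid cells. Of its 473 UMIs in labelled cells, 373 (78.9%, 95% Wilson interval 75.0 to 82.3%) were in granulocytes, neutrophils, macrophages, monocytes or dendritic cells, which together held 32.5% of all UMIs. These intervals cover counting error only. The pooled level was 166 CPM in dendritic cells, 152 CPM in neutrophils, 119 CPM in granulocytes, 114 CPM in monocytes and 68.1 CPM in macrophages, against 6.91 CPM in fibroblasts, 9.17 CPM in myocytes and 0 of 473 UMIs in Basal III cells. Over samples with at least 10 cells of the label, the mean was 284 ± 405 CPM in dendritic cells (SD, n = 8), 112 ± 114 CPM in neutrophils (n = 4), 94.6 ± 71.2 CPM in granulocytes (n = 11) and 118 ± 81.0 CPM in monocytes (n = 11). The order of these 4 labels lies within their spread. The dendritic cell value leaned on 1 healthy spleen, H4, with 16 Il1b UMIs in 20 cells (1168 CPM). Without the muscle of S6, the pooled level in neutrophils was 273 CPM (18 UMIs) and stood first.

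The cells that carried Il1b differed between organs. In joint, granulocytes held 123 of 160 Il1b UMIs (76.9%) with 31.0% of the UMIs of the organ. In lung, macrophages held 41 of 46 (89.1%), and in spleen, monocytes held 65 and dendritic cells 56 of 188. In muscle no label held a majority, with macrophages first at 20 of 76 UMIs. Skin had only 3 Il1b UMIs in all.

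Il1a and Il18 were found mainly in macrophages of the lung. Il1a had 43 UMIs, of which 30 were in lung macrophages, and no UMI was found in spleen. Of the 150 UMIs of Il18, which encodes a ligand that activates NK and T cells, 88 were in lung macrophages, which held every Il18 UMI of that organ. The pooled Il18 level was 87.6 CPM in macrophages, 17.2 CPM in monocytes and 12.4 CPM in fibroblasts. Outside lung Il18 was not mainly in macrophages. Fibroblasts held 11 and macrophages 5 of 22 Il18 UMIs in joint, and 7 and 4 of 18 in muscle. In spleen, monocytes held 9 of 19, and in skin, macrophages held 2 of 3.

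Il33, a nuclear alarmin, had the opposite distribution. Fibroblasts held 140 of its 183 UMIs at 96.7 CPM, with 72 in joint, 36 in skin and 31 in muscle. Fibroblasts together with endothelial cells held 82.0% (Wilson interval 75.8 to 86.9%). Endothelial cells alone held 10 Il33 UMIs (5.46%, beside 5.61% of all UMIs). Basal III cells, which express keratins 5 and 14, held 15 Il33 UMIs, all in skin, and granulocytes, monocytes, dendritic cells, B cells, NK cells and erythrocytes held none.

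Il1rn, the natural antagonist, had 2 kinds of source. Myeloid cells held 219 of 321 UMIs (68.2%, Wilson interval 62.9 to 73.1%) and Basal III cells 62 (19.3%), at 113 CPM in macrophages, 75.1 CPM in Basal III cells and 61.1 CPM in granulocytes. By organ the main source was macrophages in lung (86 of 89 UMIs), granulocytes in joint (64 of 93) and Basal III cells in skin (60 of 75). For every UMI of Il1a or Il1b there were 9.38 UMIs of Il1rn in skin, 1.16 in lung, 0.646 in muscle, 0.567 in joint and 0.0691 in spleen. UMIs of different genes are counted with unequal efficiency, so these ratios compare organs and not molecules.

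Il1r1, the receptor that signals, was found mainly in stromal cells. Fibroblasts and endothelial cells held 161 of its 206 UMIs (78.2%, Wilson interval 72.0 to 83.3%) at 78.0 and 80.3 CPM, and macrophages, next in order, reached 12.4 CPM. In granulocytes the level was 4.82 CPM. Fibroblasts were thus high for both Il1r1 and Il33, whereas endothelial cells, with the highest Il1r1 level, had Il33 at 16.7 CPM. Il1r1 was low in the labels where Il1b was high.

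The decoy Il1r2 was the most abundant member, with 792 UMIs. It was highest in neutrophils, at 412 CPM pooled and between 301 and 469 CPM in the 4 samples with at least 10 of them, and in granulocytes, at 193 CPM pooled. Both labels were also high for Il1b. Il1r2 UMIs were counted in every label, down to 2 UMIs in erythrocytes (6.99 CPM) and 4 in NK cells (9.55 CPM), where granulocyte markers summed to 10564 and 4516 CPM, so values this low are not read as expression. Stromal cells held 180 of its UMIs (22.7%) with 19.2% of all UMIs, and 87 of the 180 were in muscle fibroblasts. Without the muscle of S6, 106 of the 144 Il1r2 UMIs of fibroblasts remained. There were 2.98 Il1r2 UMIs for each Il1r1 UMI in joint, 2.71 in lung, 5.06 in muscle, 1.38 in skin and 27 in spleen, where Il1r1 had 5 UMIs.

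The accessory chains were rare. Il1rap had 125 UMIs, of which 34 were in joint granulocytes, and its pooled level ranged from 0 CPM in erythrocytes to 50.7 CPM in neutrophils. Il18rap had 155 UMIs: joint granulocytes held 57, and spleen NK cells, for which it had served as a marker, held 12. Its level was 57.1 CPM in granulocytes, 44.3 CPM in neutrophils and 31.0 CPM in NK cells, and without the muscle of S6 neutrophils, at 75.9 CPM (5 UMIs), stood above granulocytes. Across samples with at least 10 cells the means were 53.0 ± 40.8 CPM in granulocytes (n = 11) and 33.3 ± 40.6 CPM in NK cells (n = 13), within their spread. No Il18rap UMI was found in lung.

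**Figure D1:**
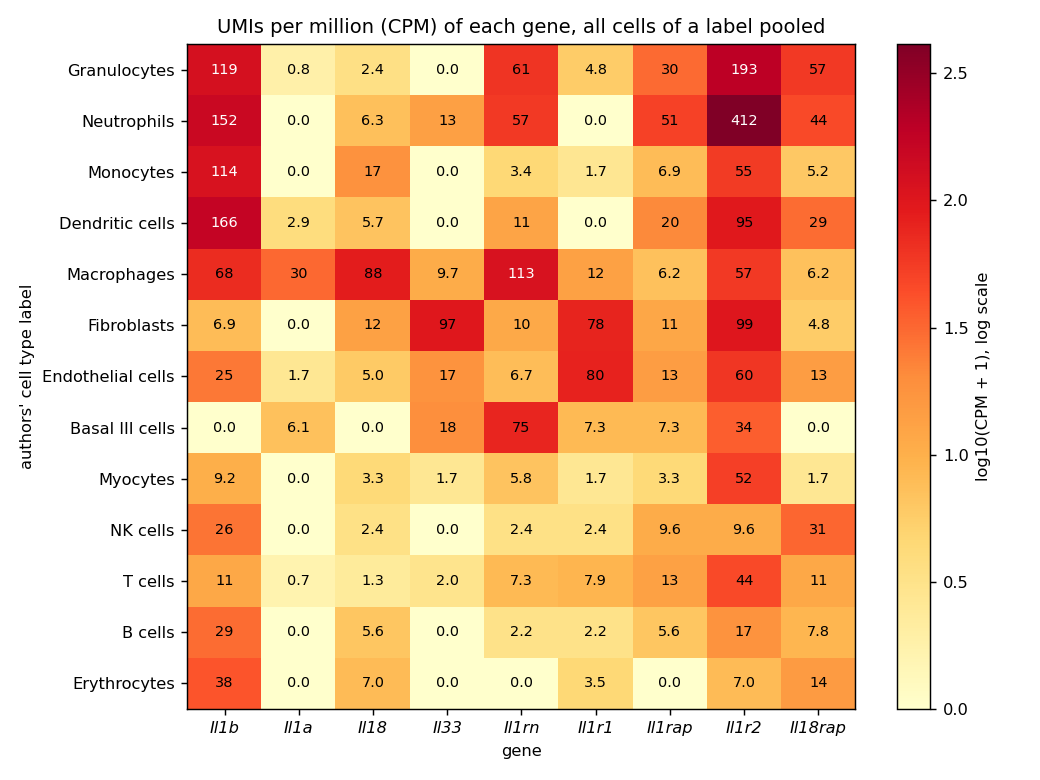
Pooled CPM of the 9 genes (columns) in the 13 labels (rows), printed in each cell and coloured on a log10(CPM + 1) scale. Il1b and Il1r2 are high in granulocytes and neutrophils, Il1r1 and Il33 in fibroblasts, and Il18 and Il1a in macrophages.

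The genes most alike to each member were ranked by Pearson's r of log2(CPM + 10) over 28 pairs of organ and label with at least 50 cells, which share libraries and depth. Cybb, an NADPH oxidase subunit, was most alike to Il1b (r = 0.81), Zyx to Il1r2 (0.80) and Cep19 to Il18rap (0.88). Il18 was nearest to Ear2 (0.83) and Mrc1 (0.81), the mannose receptor. Eln, the gene of elastin, was nearest to Il1r1 (0.96), and Ccdc80, an extracellular matrix protein, to Il33 (0.94). Cxcl16, a chemokine, was nearest to Il1rn (0.81) and Tle3 to Il1rap (0.70).

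CIA and healthy mice were compared to ask which members changed with disease, on UMIs summed per mouse, with edgeR's quasi-likelihood test over all genes with at least 10 UMIs and Benjamini-Hochberg adjustment. None of the 9 genes passed an adjusted p of 0.05 in any of 16 comparisons (5 organs, and 11 labels of 1 organ), in which they had enough UMIs for 67 fits. Of all genes, 0.69% passed in joint, 1.63% in lung, 0.00683% in muscle, 0.163% in skin and 0.346% in spleen. By label, the share was 1.78% in fibroblasts and 0.783% in macrophages of joint, 1.17% in macrophages of lung, 0.279% in macrophages, 0.362% in T cells and 0.207% in fibroblasts of muscle, 0.249% in Basal III cells and 0.269% in fibroblasts of skin, and 0.189% in B cells, 0.0851% in NK cells and 1.6% in monocytes of spleen. At an unadjusted p under 0.05 there were 10 fits, or 14.9% over the 16 comparisons. In single comparisons 3.83% to 13.3% of all genes reached that level, so these shares are not like for like. Il1rn and Il18 were each counted in all lung cells and again in lung macrophages, which share UMIs. DESeq2 gave 0 calls and 5 fits at that unadjusted level. A stricter count filter, edgeR's filterByExpr, left only 4 member fits, with 0 calls and 0 at that unadjusted level. The 10 fits are described below as values that did not pass the adjusted threshold.

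In joint, Il1b had 154 UMIs in 5 CIA mice and 6 in 3 healthy mice. The level was 56.4 CPM in S1, 48.6 in S3, 89.2 in S5, 63.7 in S6 and 39.0 in S8, against 33.4 CPM in H3 and 0 in H4 and H7. The groups did not overlap, and all healthy UMIs came from H3. The log2 fold change was 2.38 (SE 0.82, edgeR unadjusted p = 0.00357, adjusted p = 0.215), while 0.69% of genes passed the adjusted threshold, 5.63% were higher in CIA at an unadjusted p under 0.05, and 1.62% were higher without overlap. Without H3, when the healthy mice had no Il1b UMI, the adjusted p was 0.0349.

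Granulocytes, which held most Il1b UMIs of the joint, made up 14.0% to 54.2% of joint cells in CIA mice and 3.14% to 13.9% in healthy mice, and the 4 granulocyte markers Camp, Ngp, S100a8 and S100a9 summed to between 37900.5 and 219576 CPM in CIA against 14417 to 46391 CPM in healthy joints. In sums over an organ, more cells of a type and more RNA per cell cannot be told apart. With granulocytes and neutrophils left out, the log2 fold change of Il1b was 2.13 (unadjusted p = 0.0652, edgeR adjusted p = 0.663). Within granulocytes Il1b was at 167 CPM in H3 (4 UMIs in 24 cells), and in CIA mice at 210.5 CPM in S1, 128 in S3, 160 in S5, 335 in S6 (8 cells) and 23.6 in S8. H4 and H7 had 0 UMIs in 5 and 7 granulocytes, which were too few to compare. In experiment CIA alone the healthy joints (H4 and H7) held no Il1b UMI (edgeR adjusted p = 0.143).

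Il18rap in joint was at 0 (H7), 7.13 (H4) and 11.1 CPM (H3) in healthy mice, and at 0 (S6), 12.5 (S1), 16.2 (S3), 39.0 (S8) and 47.6 CPM (S5) in CIA mice. The groups overlapped, and the log2 fold change was 2.09 (SE 1.01, unadjusted p = 0.0389, edgeR adjusted p = 0.511). Without S5, which held 56 of 69 CIA UMIs, it was 1.20 (unadjusted p = 0.314, edgeR adjusted p = 0.996). Of the 8 members with at least 10 UMIs in joint, 7 had a positive log2 fold change, with a median of 1.14 beside 0.12 over all genes tested. Il33 and Il18 were at 0.02 and -0.34. Granulocytes held 65.4% to 79.2% of the joint UMIs of Il1b, Il1rn, Il1r2, Il1rap and Il18rap. For Il1r1 the share was 7.5% and for Il18 13.6%, and granulocytes held no Il33 UMI. The part of cell makeup in these fold changes was not tested.

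**Figure D2:**
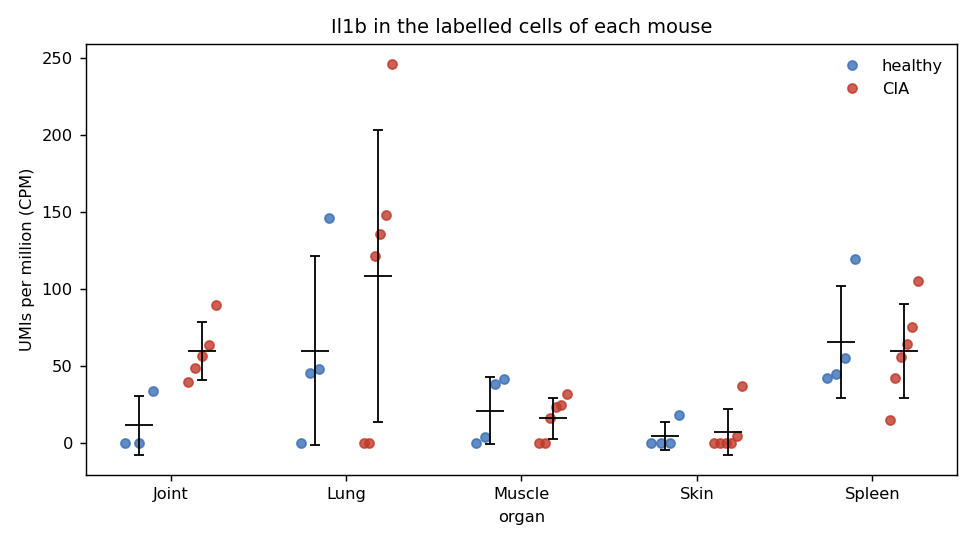
Il1b CPM in the labelled cells of each mouse (points) by organ, healthy in blue and CIA in red, with the mean (black dash) and SD (black bars). The 5 CIA joints lie between 39.0 and 89.2 CPM, above the 3 healthy joints, and the groups overlap in the other organs.

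In lung, the antagonist Il1rn and the ligand Il18 had fold changes of opposite sign that did not pass the adjusted threshold, in all cells and in macrophages, which made up 75.4% to 96.7% of lung cells. In lung macrophages, Il1rn was at 57.8 CPM in H4, 115 in H3, 119 in H6 and 130 in H7. In CIA mice it was at 69.3 CPM in S5, 96.8 in S2, 116 in S8, 206 in S1, 702 in S6 and 789 in S3. Only 3 of 6 CIA mice exceeded the healthy range, and S3 and S6, 1 from each experiment, stood far above the rest. Fitted over the mice, the difference was a log2 fold change of 1.51 (SE 0.48, unadjusted p = 0.00174, edgeR adjusted p = 0.111) in macrophages and 1.45 (SE 0.47, unadjusted p = 0.00233, adjusted p = 0.103) in all cells, while 1.17% and 1.63% of genes passed. It passed the threshold without S2 (adjusted p = 0.0439 in macrophages), without S5 (0.0389) and with plain library sizes (0.0350), and it was 1.03 (adjusted p = 0.580) without S6. At an unadjusted p under 0.05, 4.51% of genes were higher and 3.95% lower in all lung cells, and 3.97% and 4.03% in lung macrophages. In experiment CIA alone the value of Il1rn in macrophages was 1.75 (adjusted p = 0.238).

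Il18 in the same cells was at 172 CPM in H3, 298 in H6, 308 in H4 and 358 in H7. In CIA mice it was at 58.0 CPM in S8, 103 in S1, 112 in S6, 113 in S2, 139 in S5 and 210 in S3. The groups overlapped by the single pair of H3 and S3. The difference was a log2 fold change of -1.35 (SE 0.45, unadjusted p = 0.00277, edgeR adjusted p = 0.146), from 59 healthy and 29 CIA UMIs. In experiment CIA alone it was -1.63 (adjusted p = 0.321), so the direction was the same within that experiment.

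Beside these 2 genes, the granulocyte markers in lung macrophages summed to between 580.05 and 14700.5 CPM in CIA mice and between 356 and 545 CPM in healthy mice, with all 4 medians higher in CIA. The macrophage markers summed to 21174 to 27332 CPM in CIA and 26479 to 31170 CPM in healthy mice, and 4 of the 10 had a higher median in CIA. Of the 10, F13a1 was at 69.3 to 522 CPM in CIA and 0 to 9.63 CPM in healthy mice, without overlap, and Cd14 had medians of 1021 and 413 CPM, while Lyz2 had medians of 14748 and 19192 CPM and Ctss of 4161 and 5526 CPM (named after their values were seen). The granulocyte sum was 14700.5 CPM in S1, 5212 in S2, 4193 in S5, 3891 in S3, 3397 in S6 and 580.05 in S8, and S3 and S6, with the most Il1rn, had sums below those of S1, S2 and S5. The part of other cells in these results was not tested. Il1b and Il1a, the agonists that Il1rn opposes, had log2 fold changes of 0.78 (SE 0.63) and -0.64 (SE 0.68) in lung macrophages, with unadjusted p = 0.216 and 0.348 (edgeR adjusted p = 0.908 and 0.977).

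**Figure D3:**
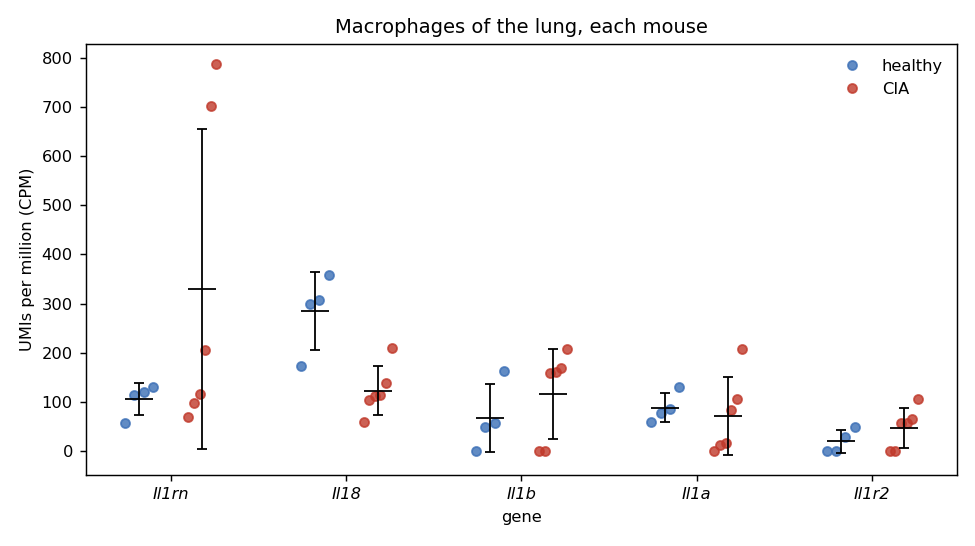
CPM of 5 members in lung macrophages of each mouse (points), healthy in blue (4 mice) and CIA in red (6 mice), with the mean (black dash) and SD (black bars). Il1rn is above the healthy range in 3 of 6 CIA mice, and Il18 is below 3 of the 4 healthy mice in all CIA mice.

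In muscle, where 0.00683% of genes passed, Il1b was at 0, 3.81, 37.8 and 41.2 CPM in healthy mice H3, H6, H4 and H7, and between 0 and 31.7 CPM in CIA mice. Il1b there had a log2 fold change of -0.43 (SE 0.78, unadjusted p = 0.586, edgeR adjusted p = 0.999), and it was 1.12 without granulocytes and neutrophils and 0.16 without H7. The granulocyte markers summed to 33451 to 99003 CPM in healthy and 2609 to 26482 CPM in CIA muscle, the reverse of the joint. Il18 had 18 UMIs in CIA muscle, in 4 of 6 mice at 5.84 to 10.6 CPM, and 0 in healthy muscle, where 3 UMIs over the group would set the level at least 1.73-fold lower (unadjusted p = 0.0153, edgeR adjusted p = 0.999), beside 2.59% of genes higher at an unadjusted p under 0.05.

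The decoy Il1r2 had an unadjusted p under 0.05 in fibroblasts and T cells of muscle. In muscle fibroblasts it was at 0, 0, 71.7 and 153 CPM in healthy H3, H6, H7 and H4, and at 0, 165, 224 and 387 CPM in CIA mice S2, S1, S5 and S6. The log2 fold change was 2.47 (SE 0.90, unadjusted p = 0.00601, edgeR adjusted p = 0.584), from 3 healthy and 84 CIA UMIs, with 7.54% of genes higher at an unadjusted p under 0.05. In muscle T cells it was at 0, 0 and 35.1 CPM in healthy H4, H6 and H7 and at 45.8, 52.8 and 84.3 CPM in CIA S6, S3 and S2. These groups did not overlap, as for 8.57% of genes (3.95% were higher at an unadjusted p under 0.05), and the log2 fold change was 1.77 (SE 0.79, unadjusted p = 0.0251, edgeR adjusted p = 0.731). In muscle fibroblasts the granulocyte markers summed to 275, 1075, 9302 and 10527 CPM in CIA S2, S1, S5 and S6. In healthy H3, H6, H7 and H4 they summed to 1500.2, 12287, 14052 and 15534 CPM. In muscle T cells the granulocyte markers summed to 10762, 2733 and 215.8 CPM in CIA S6, S3 and S2. In healthy H4, H6 and H7 they summed to 12405, 6829 and 14377 CPM. The 4 T cell markers summed in these cells to 398.1, 94.96 and 270.3 CPM in S6, S3 and S2. In H4, H6 and H7 they summed to 106.5, 196.1 and 119.3 CPM. The part of granulocyte transcripts in the Il1r2 values of muscle fibroblasts and T cells was not tested.

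In skin, where 0.163% of genes passed, Il33 in fibroblasts was at 0, 0, 24.8 and 159 CPM in healthy H4, H7, H6 and H3. In CIA mice it was at 0, 0, 24.7, 42.2 and 400 CPM in S3, S5, S1, S8 and S2. The groups overlapped, and S2 held 30 of 32 CIA UMIs. At an unadjusted p under 0.05, 3.43% of genes were higher there. The log2 fold change was 1.97 (SE 0.84, unadjusted p = 0.0207, edgeR adjusted p = 0.804), and it was 0.61 with the experiment as a term. Without S2, 6 UMIs remained, too few for a fit. In Basal III cells of skin, the antagonist Il1rn was at 82.3 to 152 CPM in healthy and 0 to 77.8 CPM in CIA mice, without overlap, as for 0.55% of genes in that direction. Its log2 fold change was -0.80 (SE 0.49, unadjusted p = 0.104, edgeR adjusted p = 0.998). Il1b had too few UMIs in skin for a fit.

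In spleen, where 0.346% of genes passed, Il1b ranged from 42.0 to 119 CPM in healthy mice and from 14.9 to 105 CPM in CIA mice. Its log2 fold change was -0.19 (SE 0.47, unadjusted p = 0.683, edgeR adjusted p = 0.999). In spleen monocytes it was at 140 ± 39.7 CPM in healthy (SD, n = 4) and 124 ± 94.6 CPM in CIA mice (n = 6). In lung the organ-level values of Il1b were 0 to 146 CPM in healthy and 0 to 246 CPM in CIA mice, with a log2 fold change of 0.86 (SE 0.64, unadjusted p = 0.175, edgeR adjusted p = 0.856).

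Whether the Il1b difference of the joint was also that of the muscle was tested with a term for organ by disease in the 18 joint and muscle samples. The log2 fold change in muscle minus that in joint was -2.92 (SE 1.17, unadjusted p = 0.0150, edgeR adjusted p = 0.569), with 0.254% of 16939 genes passing. This fit treated the samples as independent, although 8 mice gave both organs, and with the mouse as a block the value was -3.72 (edgeR adjusted p = 1).

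**Figure D4:**
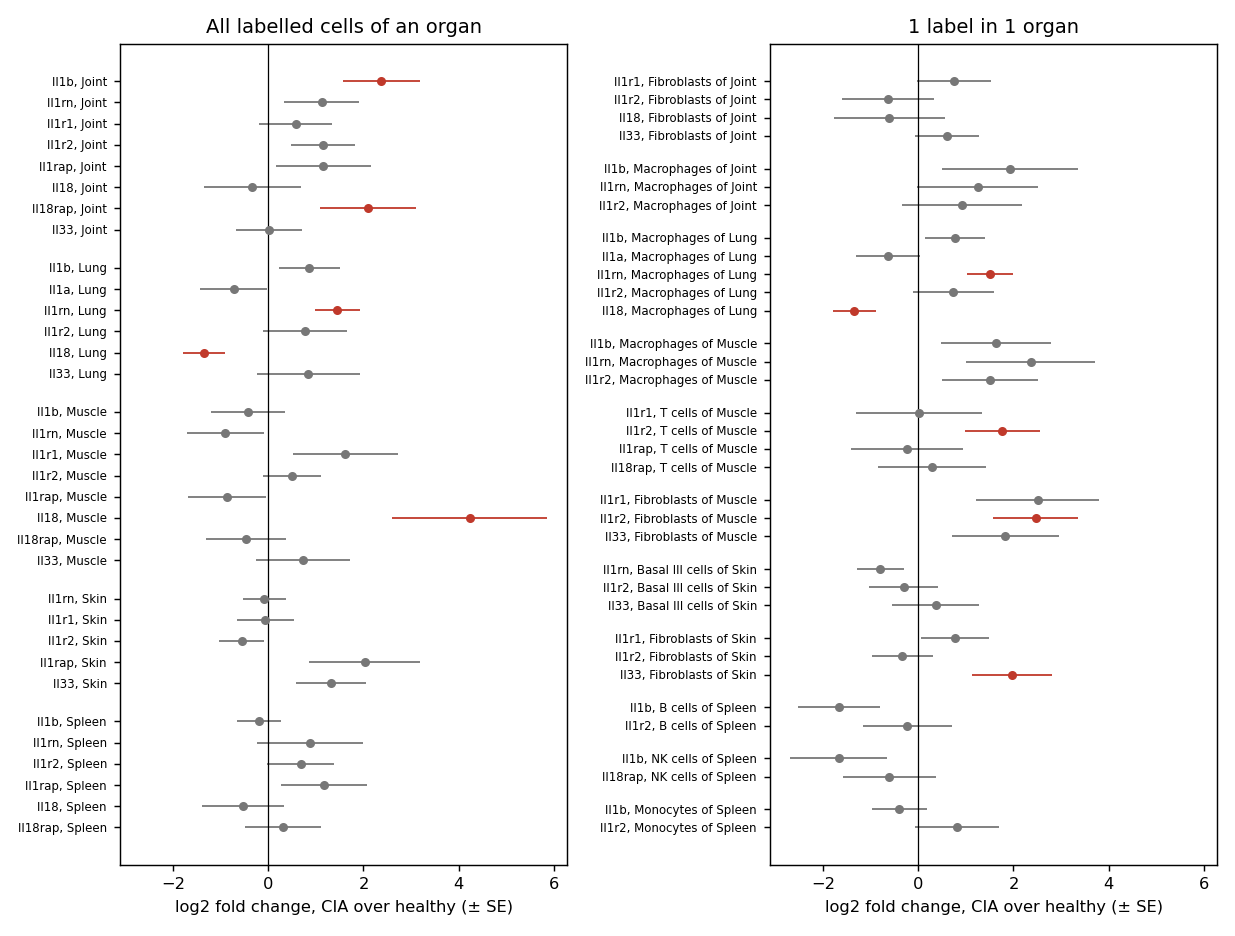
Log2 fold change of CIA over healthy (points, bars are SE) for every member with at least 10 UMIs, in all labelled cells of an organ (left) and in 1 label of 1 organ (right). Red marks an unadjusted p under 0.05; no point passed the adjusted threshold.

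Other genes of the pathway were taken from a list. Of its 58 symbols, which held other ligands, receptors and inhibitors, precursor processing, signalling and genes that IL-1 is known to induce, 51 were in the table. Over the 16 comparisons, 26 pairs of gene and comparison passed the threshold (5.58% of the pairs tested, beside 0.569% of 125396 pairs over all genes), all higher in CIA mice, in 10 comparisons and from 9 genes. Of these genes, 8 were from the 15 induced genes, and the other was Il1f9, which encodes the ligand IL-36γ (joint, log2 fold change 2.68, SE 0.71, edgeR adjusted p = 0.0267; named after its value was seen). No gene of the receptor, processing or signalling sets passed. The list was chosen with earlier results of these data known, so its share of calls is no test of the list. A gene could also count both in an organ and in a label of that organ, which share UMIs. The induced genes also respond to TNF, IL-17 and other signals, and which signal acted was not tested.

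Joint endothelial cells had a higher Il1r1 level (24 of 272018 UMIs) than joint fibroblasts (45 of 753235) but were in no comparison. Joint fibroblasts, the cells with most Il1r1 and Il33 UMIs in joint, held the most calls from the list. Of 14 induced genes tested there, 8 rose and 0 fell, with a median log2 fold change of 2.33 beside 0.27 over all genes, of which 1.78% passed. Saa3, an acute-phase protein, had 745 UMIs in 3 CIA mice (589 to 4138 CPM) and 0 in 3 healthy mice, a log2 difference of at least 6.19 against a floor of 3 UMIs over the healthy group (edgeR adjusted p = 1.19e-20). Cxcl5, a neutrophil chemokine, had 194 UMIs and 0 (at least 4.25, adjusted p = 3.41e-13, and 0.0766 without H7), and Mmp13, a collagenase, had 179 and 0 (at least 4.13, edgeR adjusted p = 5.17e-08). The other 5, named after their values were seen, were Mmp3, Ccl2, Lcn2, Il6 and Cxcl2. In the same cells Il1r1 was at 69.9, 117 and 49.6 CPM in CIA mice S1, S3 and S5 and at 47.5, 77.4 and 0 CPM in healthy H3, H4 and H7, with a log2 fold change of 0.75 (SE 0.78, edgeR adjusted p = 0.779). Il33 was at 79.2, 87.4 and 131 CPM and at 79.1, 46.4 and 104 CPM in the same mice, with a log2 fold change of 0.61 (SE 0.67, edgeR adjusted p = 0.795). Granulocyte markers in the same cells and mice summed to 13231 to 29491 CPM in CIA and 1393 to 5900.3 CPM in healthy mice, without overlap, and their part in these results was not tested. With DESeq2, Saa3 and Mmp13 passed (adjusted p = 4.81e-08 and 0.000444), and with edgeR's filterByExpr, which kept 1014 genes, Saa3 passed (adjusted p = 0.0276). S6 and S8 had fewer than 10 joint fibroblasts and were not in this comparison. Over all their joint cells, Saa3 had 0 UMIs in S6 and 8 in S8, Mmp13 67 and 0, and Cxcl5 10 and 1. In all joint cells these 3 genes passed, with overlap between the groups for Saa3 and Mmp13 and without it for Cxcl5.

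**Figure D5:**
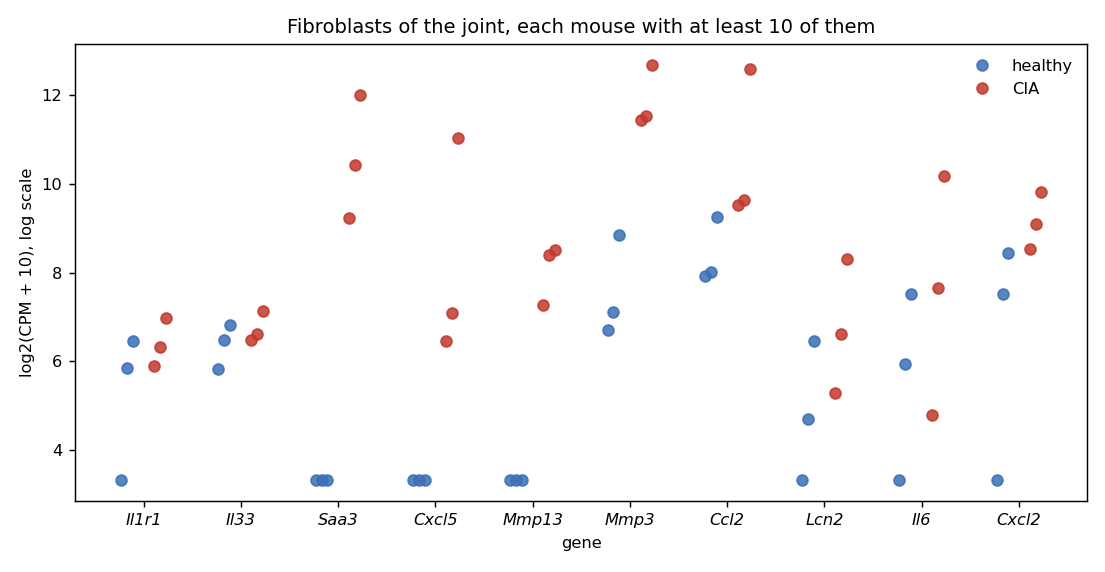
Log2(CPM + 10) of Il1r1, Il33 and the 8 induced genes that passed, in joint fibroblasts of each mouse with at least 10 of them (points; 3 healthy in blue, 3 CIA in red). Il1r1 and Il33 overlap between the groups, and Saa3, Cxcl5 and Mmp13 are at 0 UMIs in every healthy mouse.

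Saa3 was also higher in lung macrophages, at 168 to 841 CPM in CIA against 0 to 59.7 CPM in healthy mice (log2 fold change 4.44, SE 0.63, edgeR adjusted p = 1.79e-09), the cells in which Il1rn had its lowest p. In joint macrophages it was at 182 to 883 CPM against 0 to 48.4 CPM (3.55, SE 0.97, adjusted p = 0.0357), and Lcn2, a siderophore-binding protein, rose by 4.08 (SE 1.11, edgeR adjusted p = 0.0357). Neither call held without H3, H4, H7 or S1, nor that of Saa3 without S3 and that of Lcn2 without S5 (adjusted p from 0.0523 to 0.301). Granulocyte markers in these macrophages summed to 33192 to 59263 CPM in CIA and 924 to 8229 CPM in healthy mice, and the neutrophil list to 31286 to 56002 and 1849 to 7649 CPM, without overlap, and their part was not tested. In skin fibroblasts Saa3 was at 0 to 13528 CPM against 0 to 26.4 CPM (8.19, SE 0.89, adjusted p = 3.03e-13), and without S2, the mouse that also held most Il33 UMIs there, the adjusted p was 0.483. In muscle fibroblasts Mmp3, stromelysin 1, rose by 2.27 (SE 0.57, edgeR adjusted p = 0.0374), a call lost without H3, H4, H7 or S2 (0.224 to 0.592). In spleen monocytes the chemokines Ccl2 and Cxcl2 rose by 2.43 (SE 0.56, adjusted p = 0.00270) and 2.34 (SE 0.62, edgeR adjusted p = 0.0163), calls lost without H3 for Ccl2 (0.0638) and without H6, H7, S1, S2 or S3 for Cxcl2 (0.0577 to 0.170). In these monocytes granulocyte markers summed to 2679 to 24005 CPM in CIA and 722 to 1021 CPM in healthy mice, and macrophage markers, a list that holds Cxcl2, to 9187 to 16449 and 3638 to 7429 CPM, without overlap, and their part was not tested. Il1b in those cells had a log2 fold change of -0.40 (SE 0.58, edgeR adjusted p = 0.997).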

How the data were processed

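UMI counts per gene and cell were deposited by the authors as 1 table, with a table of organ, mouse, disease and cell type label. Per the study's methods, reads were aligned with STAR and counted with Drop-seq tools on GRCm38. The submitters' processing notes also list mm9 and GRCh38, with no role given, so coordinates here come from the reference annotations and not from the table. Counting at the 3′ end cannot tell isoforms apart. The authors filtered the cells and gave the labels, and doublets were not called again here.

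UMIs of labelled cells were summed per mouse, since cells of 1 mouse are not replicates, and over labels with at least 10 cells per mouse. CIA and healthy mice were compared with edgeR 4.0.16 (R 4.3.3; TMM factors, quasi-likelihood test, genes with at least 10 UMIs, Benjamini-Hochberg over all genes, threshold 0.05), and SE was the log2 fold change over the root of F. DESeq2 1.42.0, other scaling, filters, each mouse left out, and the experiment were alternatives. On simulated counts the test recovered, of genes changed by a log2 fold of 2, 12 of 104 in joint, 32 of 116 in lung macrophages and 8 of 88 in joint fibroblasts. Of those changed by 3, it recovered 54 of 93, 59 of 84 and 64 of 112. Of unchanged genes, it called 3 of 6968 in joint fibroblasts and 0 in joint and in lung macrophages. The changed genes had more UMIs than most fitted members, and all genes shared 1 dispersion, so recovery of the members is not given by these counts. Joint and muscle of a mouse come from 1 animal, and their deviations from the group means correlated between -0.157 and 0.227.

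A fold change is printed for members with an unadjusted p under 0.05 and for Il1b in every organ, with further members given for context. Pathway genes were picked from the largest calls by size, at most 3 per comparison, and not all of those are printed. Pathway genes marked as named after their values were seen stand outside that rule. The members and lists were chosen with earlier results of these data known. Figures and levels used Python 3.11.15.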

Additional observations from a re-analysis of the deposited data

Results flagged for a closer look

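A single mouse stood apart in 5 of 23 groups of 4 to 10 mice by Dixon's test of the gap to its nearest neighbour. Chance gives this in about 1 in 20 groups of normally distributed values. Several groups here held zeros and few UMIs, so that rate does not apply to them. Il1b in skin was at 37.1 CPM in CIA mouse S6 and at 17.9 CPM in healthy mouse H4, each from 1 UMI. Il1b in spleen was at 119 CPM in healthy mouse H4, against 54.8 CPM in the next mouse, from 49 UMIs of which 16 were in 20 dendritic cells. Il33 in skin fibroblasts was at 399.8 CPM in CIA mouse S2, next to 42.2 CPM, and at 158.7 CPM in healthy mouse H3, next to 24.8 CPM and from 3 UMIs.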

How the results depend on the processing

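The 9 genes had 0 calls in all 16 comparisons, and 1 call in joint without H3, in lung with plain library sizes, without S2 or without S5, and in lung macrophages under the same 3 settings, so leaving out 1 mouse gave from 0 to 1. The log2 fold change of Il1b in joint ranged from 1.76 to 7.27 when 1 mouse was left out and passed the threshold without H3 (7.27), where the healthy mice had no UMI and the fitted value is no bound. In muscle it turned positive without H7 (0.16; range -0.82 to 0.16), with a replicate block (1.88) and without granulocytes and neutrophils (1.12). In spleen it turned positive without H4 (0.45; range -0.39 to 0.45), without S8 (0.0017) and with a replicate block (0.82). The causes were not tested. The other 386 values and counts that answer a comparison kept their direction and side of the threshold. The replicate number is shared by different animals, and the block on it gave Il1rn in lung macrophages 2.45 (edgeR adjusted p = 0.167). Of pathway fold changes, 75 lost their call under an alternative, and DESeq2 gave no adjusted p for 8 fold changes. Calls over all genes by edgeR, DESeq2 and edgeR's filterByExpr were 91, 30 and 3 in joint, 105, 26 and 34 in lung, 1, 13 and 2 in muscle, 16, 4 and 0 in skin, 45, 43 and 4 in spleen, 146, 46 and 17 in joint fibroblasts, 65, 41 and 35 in lung macrophages, and 103, 37 and 29 in spleen monocytes. Few UMIs limit every member: Il1a had 43 in all.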

Other observations

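The 1144 cells without a label were in no comparison. They held 42 Il1b UMIs, at 48.4 CPM in healthy (exact Poisson interval 25.02 to 84.6) and 65.9 CPM in CIA cells (44.4 to 94.0), and 41 Il1r2 UMIs, at 32.3 CPM (13.9 to 63.6) and 72.5 CPM (49.9 to 102). Il1rn was at 44.4 CPM (22.2 to 79.4) and 37.3 CPM (21.7 to 59.8). The intervals cover counting error only and not the spread between mice.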
